A study of Cervus nippon with 4 samples.

Results

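Between the juvenile and the adolescent stage, the abundant transcripts of sika deer back muscle were compared in 2 libraries, Msc_1 (1-year-old) and Msc_2 (3-year-old). Abundant means a gene model with an FPKM of 15 or more in at least 1 of the 2 libraries, where FPKM is the fragment number normalised for transcript length and for library size. This rule kept 4737 of the 326981 gene models listed in at least 1 of the series' 4 libraries. Of these, 3401 reached 15 FPKM in both libraries, 763 only in Msc_1 and 573 only in Msc_2.

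The muscle was the longissimus dorsi of Shuangyang Sika deer aged 1, 3, 5 and 10 years (Msc_1 to Msc_4), and the labels give no treatment. Each library was made from the pooled RNA of 3 deer. With 1 library per age the variation between deer could not be measured, so no test between ages was run and no replicate error is given. All changes described here are differences between 2 pooled libraries.

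The longissimus dorsi is the long muscle of the back and grows in young deer. In skeletal muscle the most abundant messenger RNAs as a rule code for proteins of the contractile filaments, for enzymes that break down sugar and for mitochondrial proteins of energy production, so that a small number of transcripts holds much of the RNA. Growth of the fibres and a change in the mix of fast and slow fibre types are processes known to alter their proportions. The gene models of the deposited files carry only assembly identifiers, which the files do not pair with gene names, and the unigenes of the study have identifiers of another kind. The muscle label could therefore not be checked against muscle markers, no pathway could be followed, and the members are described by abundance and by assembly component. Only the 2 gene models with the largest gain and the 2 with the largest drop past 2-fold are named by identifier. In a tissue pool, fewer cells of a type and less RNA per cell cannot be told apart.

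The 2 libraries were alike in the number of gene models listed and in the FPKM sum. FPKM are already normalised for library size, so their sums do not measure it. The files listed 182367 gene models for Msc_1 and 180230 for Msc_2, with FPKM sums of 761348 and 763360. The 4737 abundant gene models held 79.6% of the sum in Msc_1 and 80.7% in Msc_2. Read counts were not among the files used here, so the number of fragments behind a value is not known. Among gene models listed in 1 library only, the highest value shared by at least 20 gene models was 3.87 FPKM in Msc_1 and 3.77 in Msc_2. If this is what 1 fragment is worth on the shortest gene models, 15 FPKM there rests on about 3.88 fragments in Msc_1, 60 FPKM on 15.5 and 500 FPKM on 129. Longer gene models rest on more, so that precision is lowest for short gene models close to 15 FPKM.

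Most abundant gene models kept their level from Msc_1 to Msc_2 within 2-fold. The change was measured as the difference in log2(FPKM + 0.1), and 3967 of the 4737 gene models (83.7%) changed by at most 1 on this scale. In 1685 of them (35.6%) the levels differed by less than 1.2-fold. Higher by more than 2-fold in Msc_2 were 342 gene models, and 428 were lower. Together these 770 were 16.3% of the abundant gene models, with 7.22% higher and 9.04% lower. Over all 104734 gene models above 0.3 FPKM in at least 1 of the 2 libraries, 52.3% were past 2-fold, 24.5% higher and 27.8% lower. Against this background the share of abundant gene models past 2-fold was lower in both directions, a description with no test. The background is mostly low gene models, with 53678 at 0.3 to 1 FPKM and 37802 at 1 to 5. Of these, 26057 and 11277 were not listed in 1 of the 2 libraries. The lower share is therefore no measure of how stable abundant transcripts are.

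**Figure D1:**
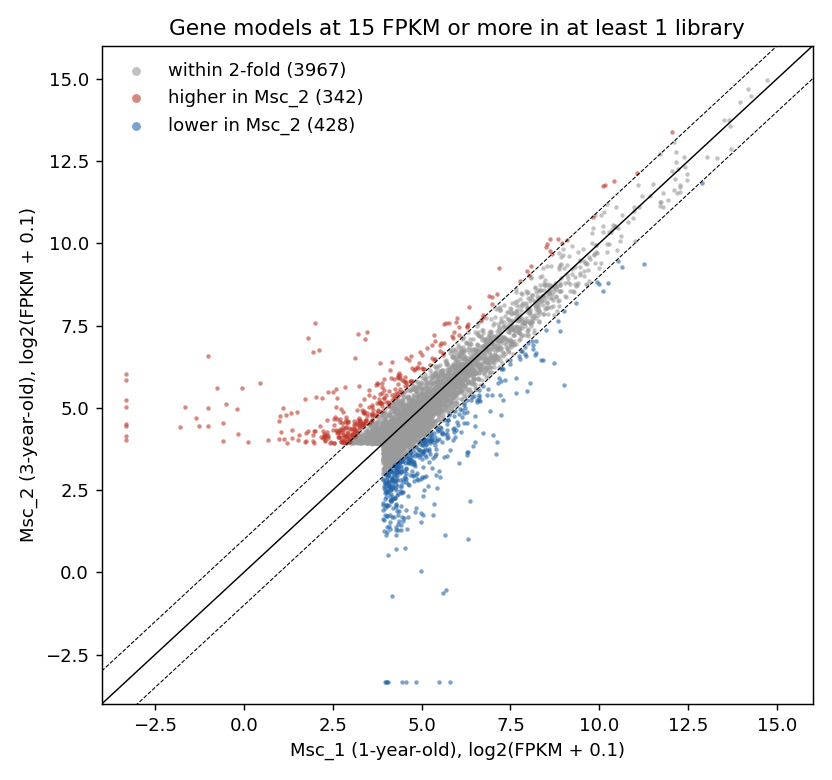
Each point is 1 of the 4737 abundant gene models, with log2(FPKM + 0.1) in Msc_1 on the horizontal axis and in Msc_2 on the vertical axis. The solid line marks equal levels and the dashed lines a 2-fold change, with 342 gene models above the upper dashed line and 428 below the lower one. Points lined up at the left and lower ends are the 17 gene models not listed in 1 of the 2 libraries.

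The middle of the distribution lay slightly below 0. The median log2 change was -0.08, with quartiles at -0.46 and 0.30. The 5th and 95th percentiles were -1.39 and 1.24. Over all gene models above 0.3 FPKM the median was -0.08 as well, a value that includes the abundant gene models and is set mostly by low ones. By class of abundance from 15 FPKM up, the median lay between -0.12 at 150 to 500 FPKM and 0.03 at 1500 FPKM or more. Of the abundant gene models, 2669 were lower in Msc_2 (56.3%), 2065 were higher and 3 were equal to the second decimal. Among the 770 past 2-fold, 44.4% were higher (exact 95% binomial interval 40.9% to 48.0%, which treats gene models as independent, which they are not, and says nothing of the variation between deer). The excess of lower gene models depended on the scaling. When the libraries were scaled by a trimmed mean of log ratios, the median became 0.0018 and 390 gene models were higher against 377 lower.

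Changes past 4-fold were few, with 79 gene models higher and 110 lower. Past 16-fold there were 28 higher and 16 lower, and these 44 gene models had a median of only 32.2 FPKM in the library where they were higher. The highest level among them was 191 FPKM for those higher in Msc_2 and 82.7 FPKM for those lower. Of the 28 higher ones, 8 were not listed in Msc_1, and of the 16 lower ones, 9 were not listed in Msc_2. The size of their change was set by the constant added to each FPKM, so their true fold is not known. No gene model at 1500 FPKM or more in either library passed 4-fold.

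The share past 2-fold and the interquartile range of the changes fell with abundance up to about 15 FPKM and did not keep falling beyond it. Between 0.3 and 1 FPKM in the higher library, 63.5% of 53678 gene models were past 2-fold, between 1 and 5 FPKM 47.9% of 37802, and between 5 and 15 FPKM 21.5% of 8517. From there on the share stayed between 14.4% and 19.8%. It was 17.2% of 2317 gene models at 15 to 30 FPKM, 15.6% of 1189 at 30 to 60, 14.4% of 710 at 60 to 150 and 15.2% of 361 at 150 to 500. Among the 101 gene models at 500 to 1500 FPKM it was 19.8%, and among the 59 at 1500 FPKM or more it was 15.3%. The interquartile range of the log2 change was 0.76 at 15 to 30 FPKM, 0.73 at 30 to 60, 0.78 at 60 to 150 and 0.77 at 150 to 500. It was 0.96 at 500 to 1500 FPKM and 1.05 at 1500 FPKM or more. Among the classes from 15 FPKM up, the interquartile range was thus widest at 1500 FPKM or more. Below 15 FPKM it was 3.72 at 0.3 to 1 FPKM, 1.87 at 1 to 5 and 0.86 at 5 to 15. The distance between the 5th and 95th percentiles was 6 at 0.3 to 1 FPKM, 8.89 at 1 to 5 and 3.47 at 5 to 15. In the lowest class 26057 of the 53678 gene models were not listed in 1 of the 2 libraries. The constant of 0.1 added to each FPKM limits the log2 change there, so the widths of the 2 lowest classes cannot be compared. It was 2.76 at 15 to 30 FPKM and 2.31 at 1500 FPKM or more. The share past 4-fold was 4.49% at 15 to 30 FPKM and 0% at 1500 FPKM or more.

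**Figure D2:**
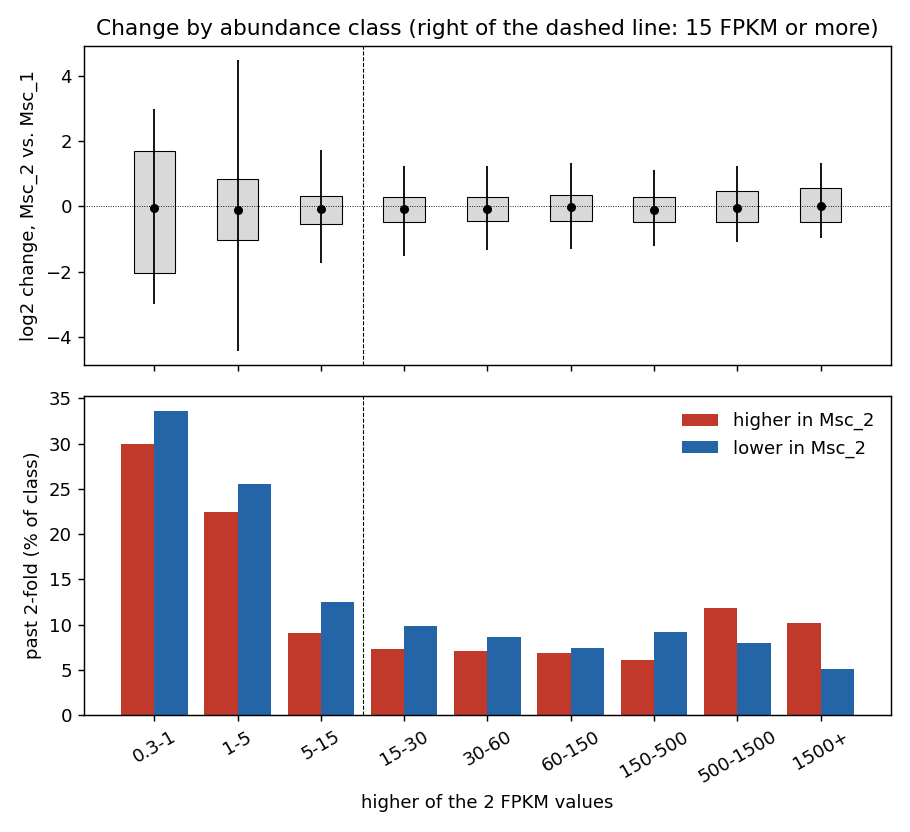
The upper panel gives the log2 change of Msc_2 vs. Msc_1 by class of the higher FPKM value, with points for medians, boxes for quartiles and lines from the 5th to the 95th percentile. The lower panel gives the percentage of each class past 2-fold, which falls from 63.5% in the lowest class to 17.2% at 15 to 30 FPKM and then stays between 14.4% and 19.8%.

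The direction of the calls was also counted along the scale of abundance. In the deposited values, lower gene models outnumbered higher ones in each class from 15 to 500 FPKM, with 229 against 169 at 15 to 30 FPKM, 102 against 84 at 30 to 60, 53 against 49 at 60 to 150 and 33 against 22 at 150 to 500. Above this there were 12 higher and 8 lower at 500 to 1500 FPKM and 6 higher and 3 lower at 1500 FPKM or more. Below 500 FPKM the excess of lower gene models depended on the scaling. There were 324 higher and 417 lower in the deposited values, 368 higher and 368 lower under the trimmed mean of log ratios, and 373 higher and 362 lower under the upper quartile. Over the 160 gene models at 500 FPKM or more, 18 were higher and 11 lower in the deposited values. Under the other scalings 16 to 22 were higher and 8 to 11 lower, so that at this level higher gene models were the larger group in each of the scalings tried. These are counts of 29 gene models in the deposited values and carry no test.

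The shift in abundance was then followed in FPKM. From Msc_1 to Msc_2, gains over the abundant gene models added up to 103776 FPKM and drops to 93670, a net gain of 10106. In the deposited values, gains and drops together were 12.9% of the FPKM sums of both libraries. Over all gene models, which include the abundant ones, gains and drops were 19.5% of the same sums. For that value 0% means identical values and 100% no gene model in common. The abundant gene models held only 79.6% and 80.7% of the sums, so their value cannot reach 100%. Set against the FPKM of the class itself, the share moved lay between 15.3% at 150 to 500 FPKM and 17.0% at 500 to 1500 FPKM. The net gain depended on the scaling and lay between 8493 FPKM under the FPKM sum and 49574 under the upper quartile. The 59 gene models at 1500 FPKM or more made up 51.0% of the FPKM moved, with gains of 60631 and drops of 39984. Their net gain was 20647 FPKM in the deposited values and between 19818 and 40921 under the other scalings. Their share of the library rose from 39.9% in Msc_1 to 42.5% in Msc_2. In the deposited values every class between 15 and 1500 FPKM had a net drop, which did not hold under each scaling. Under the trimmed mean of log ratios only the class at 150 to 500 FPKM had a net drop, and under the upper quartile none had. In the deposited values the sum at 150 to 500 FPKM dropped by 5217 FPKM, more than in the other classes, and the share of the library went from 11.3% to 10.6%. FPKM are relative values, so a gain of the most abundant gene models lowers the share of the rest.

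Few gene models carried these sums. Of the 2065 gene models that gained, 16 held 50% of the gain and 165 held 80%. Of the 2669 that dropped, 40 held 50% of the drop and 408 held 80%. The 10 largest gains made up 40.1% of all gains and the 10 largest drops 27.9% of all drops. In the deposited values, most of the FPKM moved through changes that did not pass 2-fold. The 342 gene models past 2-fold held 32.9% of the gains and the 428 lower ones 27.3% of the drops. Among the 10 largest gains and the 10 largest drops only 3 and 2 were past 2-fold. Some of these gains fell just short of it, with log2 changes of 0.98 and 0.99. At 1500 FPKM or more, 6 were higher and 3 lower past 2-fold in the deposited values, against 10 and 2 under the trimmed mean of log ratios. The shares held by gene models past 2-fold were not calculated under the other scalings.

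**Figure D3:**
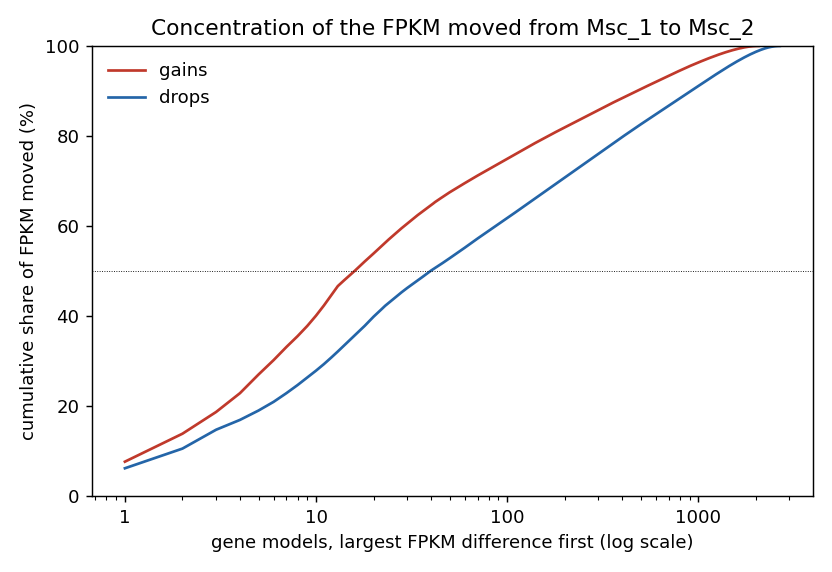
The curves add up the FPKM differences between Msc_1 and Msc_2 from the largest gene model down, gains and drops apart, with the rank on a log scale and the cumulative share of the total on the vertical axis. The curve of gains crosses 50% at 16 gene models and that of drops at 40.

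The largest gain of all was at a gene model with 18463 FPKM in Msc_1 and 26429 in Msc_2, a log2 change of 0.52. The most abundant gene model of both libraries had 26971 FPKM in Msc_1 and 31979 in Msc_2, a log2 change of 0.25. The largest drop of all was from 13305 FPKM to 7489, a log2 change of -0.83. Each of these 3 was therefore a large movement of FPKM and a small fold change. Of the 10 most abundant gene models of Msc_1, 8 were among the 10 most abundant of Msc_2, and of the 100 most abundant, 83 were. Of the 10 with the highest value in either library, 7 were higher in Msc_2 and 3 lower, and 1 was past 2-fold.

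The largest gain past 2-fold was that of c527090_g1. It had 4252 FPKM in Msc_1 and 10698 in Msc_2, a log2 change of 1.33, and moved from rank 26 to rank 8. Its share of the library went from 0.559% to 1.40%. It had 7552 FPKM in Msc_3 and 6380.4 in Msc_4, both between its levels in Msc_1 and Msc_2.
The next gain was that of c503797_g1, with 1367 FPKM in Msc_1 and 3841 in Msc_2, a log2 change of 1.49. It had 2406 FPKM in Msc_3 and 2397 in Msc_4, again between the younger stages. The 5 largest gains past 2-fold lay between 1.08 and 1.66 on the log2 scale and added up to 15983 FPKM, 15.4% of all gains. In all 5, the levels in Msc_3 and in Msc_4 were between those in Msc_1 and Msc_2. Among the 10 largest gains past 2-fold this held for 9. Such gene models were picked for a wide gap between Msc_1 and Msc_2, a choice that itself favours levels between the 2, so these are given as values only. Of these 5 gene models, 4 were the only gene model of their assembly component.

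The largest drop past 2-fold was that of c663139_g5. It had 7605 FPKM in Msc_1 and 3682 in Msc_2, a log2 change of -1.05, which is just beyond 2-fold. It then had 10848 FPKM in Msc_3 and 6946 in Msc_4, so that Msc_2 was the lowest of the 4 libraries. Under 3 of the 4 other scalings its change was between -0.99 and -0.95 and no longer passed 2-fold. The next drop was that of c678040_g3, with 2463 FPKM in Msc_1 and 659 in Msc_2, a log2 change of -1.90. It moved from rank 37 to rank 108 and had 1409 FPKM in Msc_3 and 792 in Msc_4. A second gene model of its component fell with it, from 651 to 291 FPKM. The 10 largest drops past 2-fold together dropped by 10881 FPKM, 11.6% of all drops, and in 6 of them both later libraries lay between Msc_1 and Msc_2. These drops too were picked by the gap between Msc_1 and Msc_2.

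**Figure D4:**
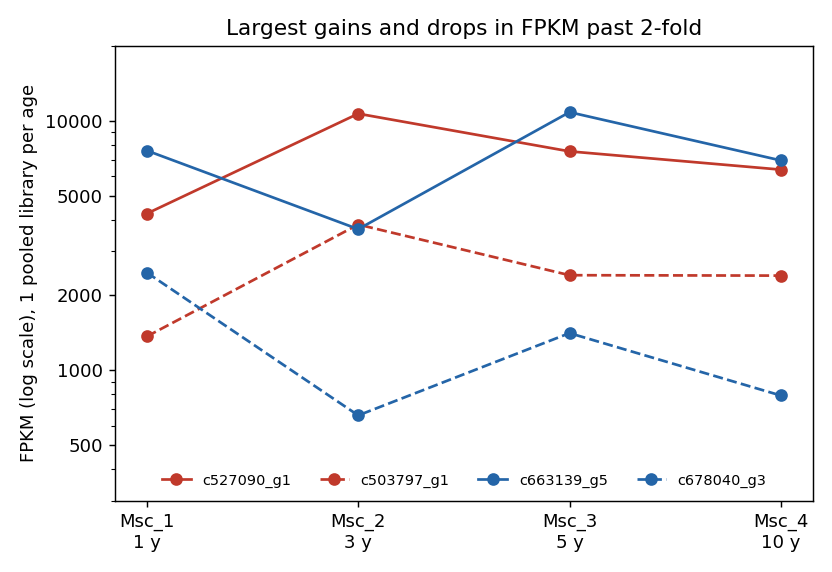
FPKM on a log scale of the 2 gene models with the largest gain past 2-fold (red) and the 2 with the largest drop past 2-fold (blue) in the 4 libraries by age, 1 pooled library per age. Both red lines peak in Msc_2 at 10698 and 3841 FPKM, and both blue lines are lowest in Msc_2 at 3682 and 659 FPKM.

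A small group was abundant in one library and not listed in the other. In Msc_1, 8 abundant gene models were not listed, and they had between 16.3 and 65.2 FPKM in Msc_2. In Msc_2, 9 were not listed, and they had between 15.48 and 55.95 FPKM in Msc_1. The files list only values above 0, so the true fold of these 17 is not known. The constant added to each FPKM still gave them a log2 change. It lay between 7.36 and 9.35 for those not listed in Msc_1. For those not listed in Msc_2 it lay between -9.13 and -7.28. These 17 are therefore counted among the gene models past 2-fold, 4-fold and 16-fold. Most were listed again in the later libraries, but few reached 15 FPKM there. Of the 8, 7 were listed in Msc_3 and 6 in Msc_4, and 0 were missing from both. At 15 FPKM or more were 1 of them in Msc_3 and 2 in Msc_4. Of the 9, 7 were listed in Msc_3 and 7 in Msc_4, and 1 was missing from both. At 15 FPKM or more were 1 of these in Msc_3 and 1 in Msc_4. With the limit set at 1 FPKM, 23 abundant gene models were below it in Msc_1 and 13 in Msc_2. Of the 23, 7 were also under 1 FPKM in both Msc_3 and Msc_4, and of the 13, 3 were.

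Gene models of one assembly component share sequence, so fragments can be divided between them and their values are not independent. The 4737 abundant gene models came from 4297 components, of which 383 held 2 or more of them, 823 gene models in all. Within these components the changes were alike, with a median distance of 0.23 between the highest and the lowest log2 change, and a distance over 1 in 50 components (13.1%). The share past 2-fold was 16.8% in components with several abundant gene models and 16.1% in the others. In 43 components 2 or more gene models passed 2-fold. In 17 of these all were higher, in 22 all were lower, and in 4 they went both ways.

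In 1 component 3 abundant gene models fell together, from 55.95, 51.1 and 28.4 FPKM in Msc_1. In Msc_2, the second of them had 0.59 FPKM and the other 2 were not listed. In Msc_3 they had 12.6, 4.83 and 2.56 FPKM and in Msc_4 3.23, 4.26 and 2.64, so that the component was listed again at both later ages. In another component 3 gene models fell from 82.7, 137 and 151 FPKM to 4.44, 12.1 and 27.4. They had 33.7, 51.7 and 62.3 FPKM in Msc_3. A component with 3 abundant gene models rose as one, from 6.41, 6.56 and 7.23 FPKM to 20.4, 15.4 and 21.2.

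The 4 components with opposite changes included that of c663139_g5. While this gene model fell by 3923 FPKM, the other 2 abundant gene models of its component rose, from 16.9 to 35.65 FPKM and from 11.4 to 32.5 FPKM. In a further component, 1 gene model fell from 254 to 126 FPKM while another rose from 78.5 to 187. This fall, with a log2 change of -1.01, was just beyond 2-fold, as was that of c663139_g5. The components with opposite changes were counted in the deposited values only, so their number may depend on the scaling. Adding up the FPKM of all gene models of a component left 728 of 4872 abundant components past 2-fold, 322 higher and 406 lower. This is 14.9%, close to the 16.3% of single gene models.

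The 2 older libraries were not used to choose the gene models. Those higher in Msc_2 than in Msc_1 had medians of 9.61, 30.4, 22.9 and 28.8 FPKM from Msc_1 to Msc_4. Those lower in Msc_2 had medians of 27.7, 9.44, 14.5 and 12.5 FPKM in the same order. The 3967 gene models within 2-fold stayed level, with medians of 28.0, 26.95, 29.25 and 28.05 FPKM. In both changed groups the medians of the older libraries lay between those of Msc_1 and Msc_2, closer to Msc_2. Both groups were picked by the gap between Msc_1 and Msc_2, a choice that itself favours levels between the 2. These medians are therefore no independent sign that a change lasted. Comparisons of Msc_3 or Msc_4 with Msc_1 share Msc_1 with the choice of the gene models, so they are given as values only. In the higher group, 189 of 342 were more than 2-fold higher in Msc_3 vs. Msc_1 and 13 were lower. For Msc_4 vs. Msc_1 the numbers of this group were 200 and 7. In the lower group, 230 of 428 were more than 2-fold lower in Msc_3 vs. Msc_1 and 4 were higher. When Msc_4 was set beside Msc_1, 279 of this group were lower and 1 was higher. Among all 4737 abundant gene models, 348 (7.35%) rose past 2-fold from Msc_1 to Msc_3 and 381 (8.04%) fell. From Msc_1 to Msc_4, 337 (7.11%) rose past 2-fold and 455 (9.61%) fell. The choice by Msc_1 itself favours large counts in the direction of each group. In Msc_3 vs. Msc_2, which shares Msc_2 with the choice, the median log2 change was -0.47 for the higher group and 0.52 for the lower group.

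The comparison of Msc_4 with Msc_3 shares no library with that of Msc_2 with Msc_1. In it, 47 of the higher group (13.7%) were more than 2-fold higher and 34 (9.94%) lower, with a median log2 change of 0.14. In the lower group 26 (6.07%) were higher and 61 (14.3%) lower, with a median of -0.27. Among the 3967 gene models within 2-fold, 52 (1.31%) were higher and 108 (2.72%) lower, with a median of -0.04. Over all 4737 abundant gene models, 125 (2.64%) were higher and 203 (4.29%) lower. Both changed groups were thus past 2-fold more often in both directions than the abundant gene models as a whole. The highest value shared by at least 20 gene models listed in 1 library only was 5.20 FPKM in Msc_3 and 5.41 in Msc_4, above the 3.87 and 3.77 of Msc_1 and Msc_2. The younger and the older libraries thus also differed in the steps of their low values, and the part of this in the levels of the older libraries was not tested.

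**Figure D5:**
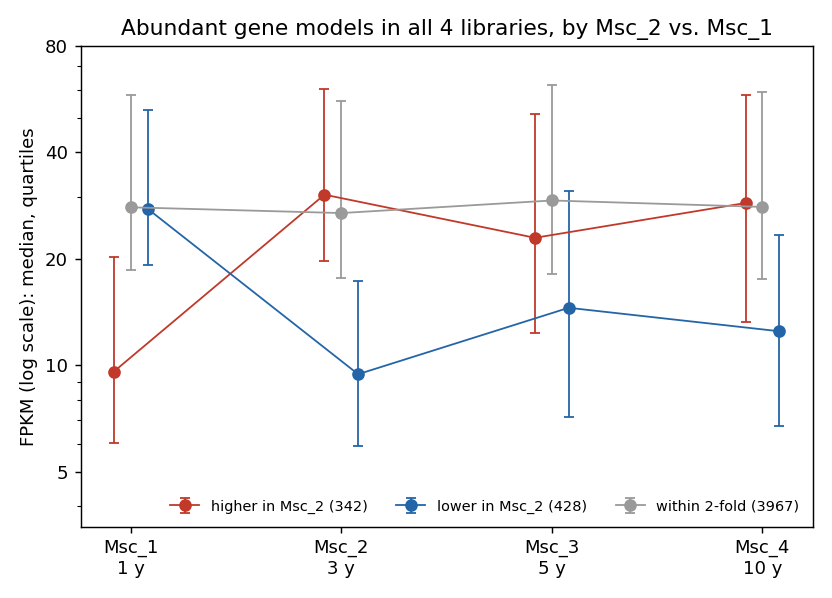
Median FPKM with quartiles, on a log scale, of the 342 gene models higher in Msc_2 than in Msc_1 (red), the 428 lower (blue) and the 3967 within 2-fold (grey) in each of the 4 libraries. The red and blue groups were chosen by Msc_1 and Msc_2. In Msc_3 and Msc_4 their medians lie between the levels of these 2 libraries, a position that this choice itself favours.

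The same rule was applied to the deposited values of the next ages for comparison, without the other scalings. In Msc_3 vs. Msc_2, 747 of 4843 abundant gene models (15.4%) were past 2-fold, 566 higher and 181 lower, and the FPKM moved was 12.7%. In Msc_4 vs. Msc_3, 405 of 4845 (8.36%) were past 2-fold, 172 higher and 233 lower, and the FPKM moved was 8.01%. The FPKM sum was 825006 in Msc_3 against 763360 in Msc_2, and the median log2 change of Msc_3 vs. Msc_2 was 0.13. The excess of higher gene models in that step may therefore depend on the scaling. In the deposited values the step from Msc_1 to Msc_2 was close to that from Msc_2 to Msc_3 in size, and both were larger than that from Msc_3 to Msc_4. Both larger steps share the Msc_2 library, so they are not independent. Whether these sizes differ by more than deer of one age do could not be determined.

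At the limit of 15 FPKM, the 8 gene models with a higher value of at most 15.01 FPKM had log2 changes between -2.01 and 0.31. The 11 between 14.98 and 14.99 FPKM had changes between -1.61 and 0.01, so gene models just inside and just outside the limit had overlapping values.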

How the data were processed

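Messenger RNA libraries of the longissimus dorsi were analysed, 1 per age, each from pooled RNA of 3 deer. The authors sequenced them on a HiSeq2500, filtered the reads for adaptors, contamination and quality, and deposited 1 FPKM value for each listed gene model and library, rounded to 2 decimals. The labels name Bowtie 0.12.2 without its role; not given in the sources used here are the assembler, the counting program and the gene model lengths. Values were joined on the identifier in Python 3.11.15 (numpy 2.4.6, pandas 2.3.3, scipy 1.17.1), and unlisted gene models were set to 0. Samples were grouped by the age in the labels. Changes are on the log2(FPKM + 0.1) scale, which understates the change of low gene models. A gene model past a log2 change of 1 was counted, with no test, since the study's own comparison needs read counts. The 2 gene models with the largest gain and the 2 with the largest drop in FPKM past 2-fold were named. The gene models and rules were chosen with earlier results of these data known. The code was tested for Msc_2 vs. Msc_1 on data simulated from Msc_1, with 4201 gene models at 15 FPKM or more. All 200 of 200 gene models changed 4-fold were recovered and 0 others counted. The unchanged ones were given a much smaller spread than the real data have. This outcome therefore checks the code and not the reliability of the counts. Alternatives were 4 scalings (a trimmed mean of log ratios and the median of ratios, both over those reaching 1 FPKM in each library, the upper quartile, and the FPKM sum), a pseudocount of 1, other filters, a log2 change of 2 and sums per assembly component.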

Additional observations from a re-analysis of the deposited data

How the results depend on the processing

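No paired analysis was possible because a single library stood for each age, which also left no replicate that could be taken out. The 770 gene models past 2-fold numbered between 721 and 768 under the 4 scalings, a pseudocount of 1 and component sums. They numbered 372 at 30 FPKM or more, 186 at 60 FPKM or more, 490 with a mean of 15 FPKM, 247 with 15 FPKM in both libraries, 189 past a log2 change of 2 and 54800 above 0.3 FPKM. With 15 FPKM in both libraries 7.26% of 3401 gene models were past 2-fold, and with a mean of 15 FPKM 12.1% of 4038, against 16.3% by the rule used, which also keeps gene models that reach 15 FPKM only in the library where they are high. The median log2 change turned from -0.08 to 0.0018 under the trimmed mean of log ratios and 0.012 under the upper quartile, and was -0.026 under the median of ratios and -0.056 with 15 FPKM in both libraries. The share of higher calls was 50.8%, 51.6% and 49.2% under the trimmed mean, the upper quartile and the median of ratios. The FPKM moved was 13.3% under the trimmed mean and the upper quartile, 13.1% under the median of ratios and with component sums, 12.05% at 30 FPKM or more, 11.97% with 15 FPKM in both libraries, 11.1% at 60 FPKM or more, 12.6% with a mean of 15 FPKM, 18.6% above 0.3 FPKM and 10.3% without the 10 most abundant gene models. The scalings of the calls and of the net FPKM by class were added after seeing the data. The 29 calls at 500 FPKM or more numbered between 27 and 32 under the 4 scalings. Precision is limited by the unknown number of fragments and by 1 pool per age.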
